A study of Mus musculus with 36 samples.

Results

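The comparison was between bone marrow macrophages (BMM) from mice without the microRNA gene Mir324 and BMM from wild-type (WT) mice. It used 12 of the 36 RNA-seq libraries of the study, 6 with the genotype Mir324-null (null) and 6 of wild-type controls, chosen by their titles. The mice were 20 weeks old. Flushed marrow was grown in α-MEM with 100 ng/mL of the growth factor M-CSF for 3 days, and the resulting macrophages were replated with 30 ng/mL M-CSF alone for 5 days, so both groups had M-CSF and neither had RANK-L. The other 24 libraries were osteoclasts (OC) and osteoblasts (OB). The OC were grown for 5 days from such macrophages with RANK-L at 50 ng/mL beside the same M-CSF. The OB came from bone chips and were cultured for 18 days, with no M-CSF or RANK-L listed. Cell type, culture time and culture conditions thus differ together between OB and BMM. These 24 libraries were used here only to test whether a genotype difference was of another size outside the macrophage cultures. The labels do not say how the null allele was made, and they do not say whether the libraries of a group came from separate mice, so p-values measure the spread between these libraries, which may be technical. They name no batch, so any batch shared by all libraries of a genotype and the genotype itself cannot be told apart.

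Macrophages in M-CSF culture clear dead cells, sense microbes through pattern receptors, and release cytokines after the transcription factor NF-kB moves to the nucleus. They keep a low level of interferon-stimulated genes, and they are the cells from which RANK-L makes osteoclasts. A microRNA is a short RNA that pairs through its seed, bases 2 to 8, with messenger RNAs and lowers their level or translation. The hairpin of Mir324 lies at chr11:70012043-70012131 on the plus strand (GRCm38) and gives 2 mature forms. They are shown with the seed in capitals, as held by RefSeq for GRCm38.p6, because by their label the null cells lack them.
mmu-miR-324-5p: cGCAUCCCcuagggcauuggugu
mmu-miR-324-3p: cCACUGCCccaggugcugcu
The 5p form maps to chr11:70012060-70012082 and the 3p form to chr11:70012095-70012114. The seeds differ, and the hairpin itself is not among the genes of the count tables, so its loss was not measured here.

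Estimated counts per library ranged from 17928674 to 23479985 in WT and from 17605810 to 21709587 in null. A gene was called when edgeR's quasi-likelihood test gave an adjusted p (Benjamini-Hochberg over all genes tested) under 0.05. Of 11935 genes tested, 6248 were called, which is 52.4%. Of these, 3223 were higher in null (27%) and 3025 lower (25.3%), and every count over a gene list is to be read against those shares. The lists and their members were chosen with earlier results of these data known. The contrast of a list with all genes is therefore a description and not a test. With a change of at least 2-fold, on top of the adjusted p, the counts were 848 higher (7.11%) and 582 lower (4.88%). Tested on log2(TPM + 1), 2021 were higher and 4116 lower, so that 32.9% of calls were higher against 51.6%, and the median log2 fold change over all genes was -0.12 against 0.02; changes in CPM are therefore read against that shift. In the CPM fit the null and WT libraries did not overlap for 3695 genes (31%). The first principal component held 66.1% of the variance and separated the genotypes. The second held 8.9%, and along it null libraries 1, 5 and 6 lay apart from 2, 3 and 4. The biological coefficient of variation was 11.8% in WT and 19.2% in null.

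The cultures carried the markers of macrophages in both genotypes. Csf1r, the receptor for M-CSF, ranged from 1499 to 1825 (median 1714) CPM (counts scaled to the library total, after TMM scaling; lowest to highest library) in WT and from 1550 to 2013 (median 1817) in null. The groups overlapped, and the difference did not pass the test (log2 fold change 0.09 ± 0.07, adjusted p = 0.321), although with length and GC trends removed it did (0.21, adjusted p = 0.0297). Of 18 macrophage genes tested, 5 were higher in null and 9 lower, with a median log2 fold change of -0.27. Adgre1, which codes for the surface marker F4/80, rose from a median of 1843 CPM in WT (1695 to 2006) to 7292 in null (6344 to 8059.9), without overlap (log2 fold change 1.99 ± 0.08, adjusted p = 7.21e-12). Cd14, the co-receptor for bacterial lipopolysaccharide, was higher by a log2 fold change of 1.08 and Aif1, an actin-binding protein of macrophages, by 1.83. Adgre4, a relative of Adgre1, rose by 3.12. Members that fell by at least 2-fold included the sialic acid receptor Siglec1 (-1.89), the IgG receptor Fcgr1 (-1.39) and the receptor for dying cells Mertk (-1.17), all as log2 fold changes. The markers Cd68 and Mpeg1 fell by 0.52 and 0.95 on the log2 scale, and Lyz2, lysozyme, was higher by 0.29 with overlapping groups and did not pass on log2(TPM + 1) (adjusted p = 0.0728).

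Several defining markers of other marrow cells were at or near 0 counts, while some transcripts listed for those cells were well above 0 and higher in null. In bulk RNA, more cells of a type and more RNA per cell cannot be told apart. Of 22 neutrophil and granulocyte genes 7 passed the filter on low counts. Of those, S100a8, Lcn2 and Mcemp1 passed it through the null libraries, with at most 5 counts in a WT library, so that they were higher in null followed from the filter. Mmp8 and Csf3r, with log2 fold changes of 3.30 and 1.07, were counted in every library of both groups. The other 2 tested genes did not pass the test. The summed level of the list ranged from 68.3 to 79.9 CPM in WT and from 311 to 339 in null. Most of that sum was Mmp8, a collagenase, at 196 to 228 (median 207) CPM in the null libraries. S100a8, a calcium-binding protein of neutrophils and activated monocytes, went from a median of 0.147 CPM in WT (0.0563 to 0.273) to 9.9 in null (6 to 16.4). Its partner S100a9 had 0 counts in all 12 libraries, and so had the granule gene Elane and the neutrophil gene Retnlg; Ly6g, the defining surface marker of neutrophils, reached at most 2 counts in a library.

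Of 17 stromal, osteoblast and endothelial genes 7 were tested, 6 were higher in null and Kdr, an endothelial receptor for VEGF, was lower (log2 fold change -2.98 ± 0.20, adjusted p = 4.04e-09). Col1a1, the main collagen of bone, ranged from 6.58 to 22.1 (median 14) CPM in WT and from 33.9 to 102 (median 51.9) in null, without overlap (log2 fold change 2.05 ± 0.35, adjusted p = 0.000329). Sparc, a bone matrix protein, ranged from 0.338 to 2.32 (median 0.911) in WT and from 12.7 to 24.6 (median 15.5) in null. The summed level of this list ran from 133 to 196 CPM in WT and from 256 to 376 in null, most of it Pecam1. As with the neutrophil genes, members that were near 0 in WT passed the filter through null. The hormone gene of osteoblasts Bglap reached at most 2 counts in a library. Dcn, a proteoglycan of fibroblasts, had 0 counts in every WT library and up to 40 in a null library. Of 12 inflammatory monocyte genes 8 were tested, 5 were higher and 1 lower, and the summed level was 155 to 231 CPM in WT and 133 to 172 in null. The higher ones were Hp, Gpr141 and the matrix genes Fn1, Vcan and Thbs1 (log2 fold changes of 2.59, 4.60 and 1.45), while the defining marker Ly6c2 had at most 10 counts in a library.

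The erythroid, megakaryocyte, mast and basophil list summed to between 158 and 241 CPM in WT and between 920 and 1543 in null, nearly all of it Pf4. Pf4 rose from a median of 209.5 to 1193 CPM and Ppbp from 0.344 to 14.6, both chemokines that macrophages can also make. Ppbp, near 0 in WT, needed null libraries to pass the filter on low counts, so the filter favoured a higher level in null. Itga2b and Gp9, defining markers of the lineage, stayed at or under 11 and 2 counts in a library. Hemoglobin genes were at 0. Of 15 B-cell, T-cell and NK-cell genes 12 did not pass the filter, with at most 17 counts in a library. Of the other 3, Cd79b, a B-cell receptor chain with at most 2 counts in a WT library, was higher in null at a mean of 1.78 CPM. That Cd79b was higher in null followed from the filter. Cd3d and Cd4 did not pass the test (0.72 and 0.58). Cd3d did pass without WT library 6 or null library 1 or 4 (adjusted p = 0.0457, 0.0452 and 0.045), and Cd4 without WT library 1 or null library 5 (0.0322 and 0.0293) and with limma-voom (0.0419). The summed level of that list was 3.01 to 6.29 CPM in WT and 6.85 to 10.7 in null. The part of other cell types in these differences was not tested.

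The genes with the largest changes turned from near silence to high levels or the reverse. They were chosen for size among called protein-coding genes with at least 20 CPM in the higher group and no overlap, so their size is a description. Mmp9 (chr2:164940780-164955850, plus strand), a gelatinase that degrades collagen, had 37 estimated counts over all 6 WT libraries, at 0.092 to 0.675 (median 0.32) CPM. The null libraries held 153 to 221 (median 180.5) CPM (log2 fold change 9.15 ± 0.20, adjusted p = 1.09e-14). Mmp9 passed the filter on low counts through these null libraries, so that it was higher in null followed from the filter. Fpr1 (chr17:17876471-17883940, minus strand), the receptor for formylated bacterial peptides, ranged from 0.874 to 2.59 (median 1.11) CPM in WT and from 504 to 566 (median 554) in null (log2 fold change 8.65 ± 0.19, adjusted p = 3.6e-14). The related receptor Fpr2 ranged from 0.046 to 0.675 (median 0.27) in WT and from 27.6 to 39.5 (median 32.4) in null. Saa3, an acute phase protein, went from a median of 1.28 CPM in WT (0.276 to 2.49) to 358 in null (277 to 517), a fold of 263. For all of these every null library exceeded every WT library by more than the spread within either group.

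The other genes that rose most were Cd55, which protects cells from complement (7.48 as log2 fold change), Hp, the hemoglobin-binding haptoglobin (7.47), Lox, which crosslinks collagen (7.14), Slc13a3, a carrier of dicarboxylates (6.49), the protease inhibitor Slpi (6.37), the adhesion protein Flrt3 (6.35), Acod1, the enzyme that makes itaconate (6.34), and the membrane-bound metalloproteinase Mmp14 (5.76). The WT median was under 2 CPM for each of these 8 genes. Over all 6 WT libraries Hp had 26 estimated counts, Cd55 and Flrt3 32 each, Fpr2 34 and Lox 73. Each of these genes had a WT library with 3 counts or fewer, as had Mmp9, so these folds are imprecise. Hp, Cd55, Flrt3 and Fpr2, with at most 12 counts in a WT library, also passed the filter on low counts through the null libraries. That these genes were higher in null thus followed from the filter. Lox and Saa3 had WT libraries under the filter, down to 0.169 and 0.276 CPM, so null libraries were needed for them to pass. The filter thus favoured a higher level in null for both.

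Slco2b1, an organic anion carrier, fell the most. It ranged from 70.2 to 94.2 (median 84.2) CPM in WT and from 0.236 to 2.6 (median 0.913) in null (log2 fold change -6.33 ± 0.30, adjusted p = 6.28e-10). Egr1, an immediate early transcription factor, ranged from 30.2 to 84.8 (median 42.8) in WT and from 1.09 to 3.04 (median 1.86) in null (log2 fold change -4.76 ± 0.31, adjusted p = 2.49e-08). Gpr34, a lysophosphatidylserine receptor of microglia and macrophages, ranged from 39.7 to 56 (median 47.2) in WT and from 1.6 to 3.78 (median 2.21) in null. The groups were far apart for all 3 genes, although the choice of genes required that they not overlap. Htr2b, a serotonin receptor, went from a median of 154 CPM in WT (135 to 175) to 9.39 in null (7.28 to 12), and Epas1, which codes for the hypoxia-inducible factor HIF-2α, from a median of 87 CPM in WT (75.8 to 106) to 5.13 in null (2.6 to 9.36). Tox2 fell by 5.47 on the log2 scale, Chn2 by 3.92 and the coagulation factor F13a1 by 3.73. Sorbs3 fell by 3.44, the adenylate cyclase Adcy3 by 3.29, Rnf144b by 3.20 and Tmem154 by 3.20. Slco2b1 and Tox2 had null libraries under the filter on low counts, down to 0.236 and 0.156 CPM. They needed WT libraries to pass, so the filter favoured a lower level in null for both, and their folds are imprecise.

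**Figure D1:**
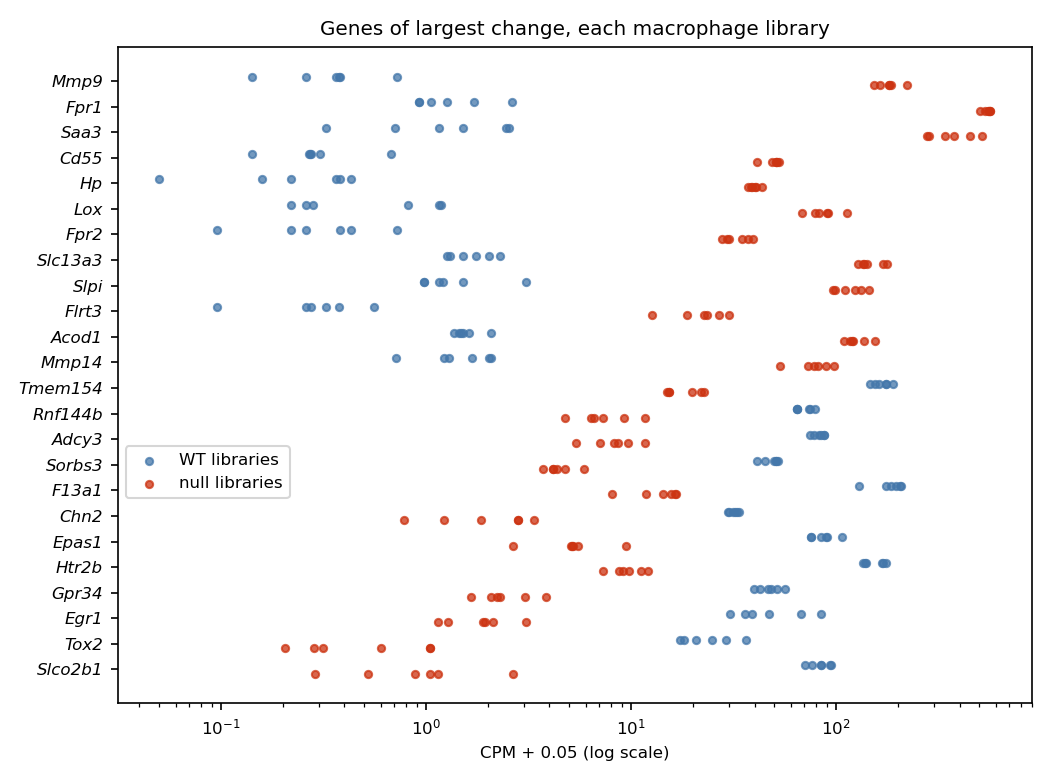
Each dot is 1 library, with CPM + 0.05 on a log axis, for the 12 higher and the 12 lower genes of largest change; WT in blue and null in red. The colours do not overlap for any of the 24 genes, which the choice of genes required, and Mmp9 and Fpr1 show the widest gap.

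NF-kB is held in the cytoplasm by its inhibitors, and it switches on the genes of those inhibitors, which ends its own signal. Of 17 genes for its subunits, inhibitors and feedback targets, all of them tested, 13 were higher in null and 1 lower, with a median log2 fold change of 1.39 against 0.02 over all genes. Among the subunits of the canonical branch, Rela and Nfkb1 did not pass the test (log2 fold change -0.17 ± 0.08, adjusted p = 0.0965 and log2 fold change 0.10 ± 0.08, adjusted p = 0.28), and Rel was lower (log2 fold change -0.32 ± 0.12, adjusted p = 0.0373). Rela was lower past the threshold on log2(TPM + 1) (adjusted p = 0.0117), with length and GC trends removed (0.0439) and without null library 6 (0.0451). Rel missed the threshold without WT library 1, 5 or 6 or null library 3, 5 or 6 (adjusted p from 0.0548 to 0.0827) and with the replicate block (0.0723). Rel also missed it with an offset for average transcript length (0.0527), with length and GC trends removed (0.0743), and with those trends and the block (0.113). The subunits of the alternative branch rose, Relb from a median of 20.7 to 65.6 CPM and Nfkb2 from 53.8 to 149.6.

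The inhibitors rose together. Nfkbia, which codes for IκBα, ranged from 88.3 to 100.4 (median 92.2) CPM in WT and from 210.02 to 324 (median 275) in null (log2 fold change 1.55 ± 0.10, adjusted p = 2.06e-09). Nfkbie ranged from 17.1 to 24.9 (median 22.2) in WT and from 62.8 to 77.8 (median 66.9) in null (log2 fold change 1.66 ± 0.09, adjusted p = 3.23e-10). Nfkbiz, an atypical nuclear inhibitor, ranged from 10.7 to 14.3 (median 12.9) in WT and from 42.3 to 52.8 (median 50.9) in null (log2 fold change 1.95 ± 0.09, adjusted p = 3.97e-11). All null libraries were above all WT libraries for each of the 3. Bcl3, another atypical member, rose from a low level (1.17 to 7.62 CPM in the median). Among feedback and target genes, the ubiquitin ligase Birc3 was higher by a log2 fold change of 1.60, the adaptors Tnip1, Tnip3 and Traf1 by 1.51, 1.37 and 1.33, and the adhesion molecule Icam1 by 1.39. Tnfaip3, the deubiquitinase A20, was higher by 0.45, with overlapping groups, and did not pass on log2(TPM + 1) (adjusted p = 0.101). The medians of the list in the 6 null libraries lay between 1.33 and 1.40 above the WT mean on the log2(CPM + 1) scale, and those of the WT libraries between -0.06 and 0.09.

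**Figure D2:**
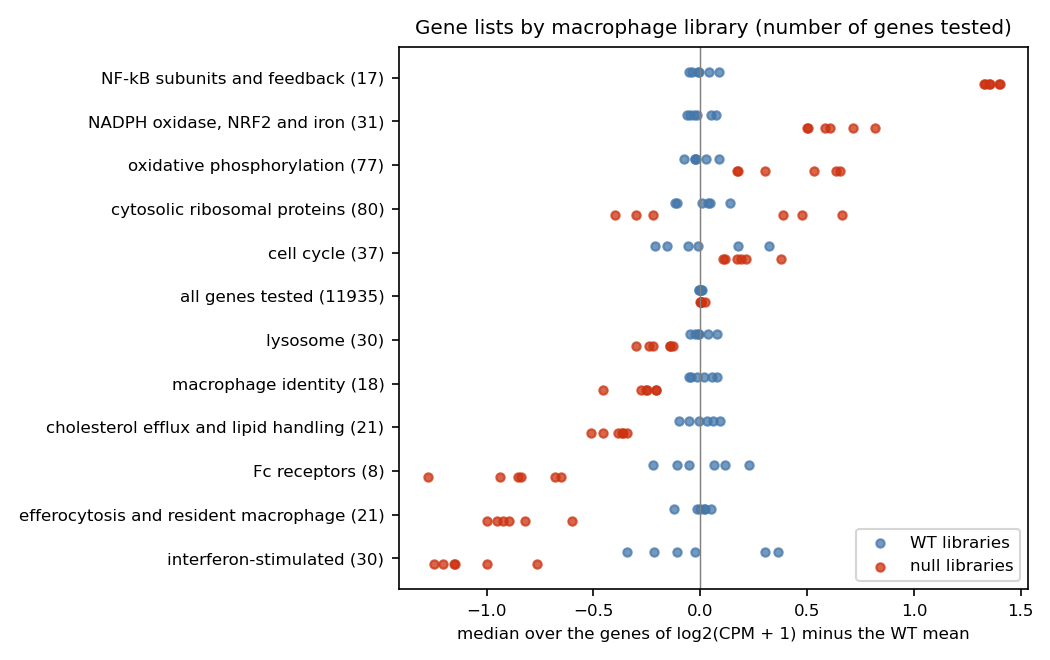
Each dot is 1 library: the median, over the tested genes of a list, of log2(CPM + 1) minus the WT mean; WT in blue, null in red, with the number of genes in brackets. The NF-kB and interferon lists separate the genotypes in opposite directions, the ribosomal protein list spreads over the null libraries on both sides of 0, and the median of all genes stays near 0.

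A promoter with the letters GGGANNTTCC, a short form of the NF-kB motif, was looked for on both strands in the 250 bases before each annotated start. It was present in 3 of the 14 genes of the list with a RefSeq promoter, Nfkbia, Nfkb2 and Cyld, and in 1.36% of all 27025 genes. Cyld, a deubiquitinase, did not pass the test (log2 fold change -0.10 ± 0.07, adjusted p = 0.296). The promoters of Nfkbia (chr12:55492648-55492897, minus strand) and Nfkb2 (chr19:46305680-46305929, plus strand) are shown with the motif in capitals, from RefSeq on GRCm38.p6, because both genes rose.
Nfkbia: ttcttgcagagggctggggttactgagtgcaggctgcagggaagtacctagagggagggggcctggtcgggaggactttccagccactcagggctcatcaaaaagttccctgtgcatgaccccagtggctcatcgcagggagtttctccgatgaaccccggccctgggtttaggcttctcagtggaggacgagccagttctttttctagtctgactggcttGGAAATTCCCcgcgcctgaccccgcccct
Nfkb2: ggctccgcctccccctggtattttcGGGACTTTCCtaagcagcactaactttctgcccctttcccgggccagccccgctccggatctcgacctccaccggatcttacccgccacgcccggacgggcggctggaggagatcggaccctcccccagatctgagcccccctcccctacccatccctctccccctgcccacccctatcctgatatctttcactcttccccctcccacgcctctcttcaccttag
The motif starts 29 bases before the annotated start in Nfkbia and 225 before the start shown for Nfkb2. Nfkb2 has another annotated promoter (chr19:46305445-46305694), not shown, with 1 match that starts 236 bases before its start. A match is a description of the letters and not a bound site.

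Of 21 genes for cytokines, prostaglandin synthesis and nitric oxide synthesis that were tested, 10 were higher in null and 6 lower. Tnf, the cytokine of early inflammation, ranged from 8.33 to 9.86 (median 8.76) CPM in WT and from 24.9 to 38.2 (median 31.4) in null (log2 fold change 1.84 ± 0.11, adjusted p = 8.14e-10). The list holds 3 enzymes of prostaglandin E2 synthesis. Ptgs1, the constitutive cyclooxygenase, was higher by a log2 fold change of 1.79, Ptgs2, the inducible one, by 5.23 and Ptges, the terminal synthase, by 4.30. Ptges ranged from 1.1 to 3.04 (median 1.93) CPM in WT and from 37.6 to 44.9 (median 39.3) in null. Hpgd, which degrades prostaglandins, went the other way, from a median of 39.5 CPM in WT (32.1 to 59.4) to 4.86 in null (4.18 to 5.62) (log2 fold change -3.15 ± 0.16, adjusted p = 1.27e-10). Il1rn, the antagonist of the IL-1 receptor, rose by 0.64. Il1b also passed the test but reached a mean of only 1.85 CPM in null, and Il6, Nos2 and Il12b had at most 11, 16 and 30 counts in a library. Spp1, osteopontin, a secreted matrix protein that is also a cytokine, fell from a median of 4678 CPM in WT (4076 to 6231) to 1679 in null (1561 to 1991) (log2 fold change -1.53 ± 0.11, adjusted p = 6.43e-09). Il18, Osm and Nlrp3 fell by 0.95, 0.86 and 0.62 on the log2 scale.

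Of 17 chemokine genes tested, 8 were higher in null and 6 lower, against 27% and 25.3% of all genes. The neutrophil attractants Cxcl1 and Cxcl2 rose, Cxcl2 from a median of 5.78 CPM in WT (4.95 to 6.52) to 58.6 in null (40.5 to 71.2) (log2 fold change 3.30 ± 0.14, adjusted p = 1.81e-11) and Cxcl1 from a median of 0.696 to 6.23. For Cxcl1, WT library 2 was under the filter on low counts, at 0.209 CPM with the next lowest at 0.644. Null libraries were thus needed for Cxcl1 to pass, which favoured a higher level in null. Cxcl16, which is also a scavenger receptor, rose from a median of 241 CPM in WT (213 to 269.96) to 781 in null (700.05 to 809) (log2 fold change 1.66 ± 0.07, adjusted p = 1.56e-11). Ccl5 was higher by 1.99. The monocyte attractants Ccl2 and Ccl7 fell by 0.56 and 0.99 on the log2 scale, each with overlapping groups, and Ccl4 by 0.80 without overlap. Of 17 chemoattractant receptors tested, 4 were higher and 8 lower, and the formyl peptide receptors above had the largest folds of the 4. The purinergic receptors P2ry12 and P2ry13, typical of microglia, fell by 1.46 and 1.49. Cx3cr1, the fractalkine receptor, ranged from 227 to 387 (median 291) CPM in WT and from 135 to 176 (median 156) in null (log2 fold change -0.91 ± 0.13, adjusted p = 2.53e-05). C5ar1, the receptor for complement C5a, fell by 0.45, and Ccr1 by 0.86. Cxcr4, the CXCL12 receptor, was higher by 1.08 with overlapping groups, at an adjusted p of 0.0485. It missed the threshold without WT library 1, 2 or 3 or null library 2, 3 or 4 (adjusted p from 0.072 to 0.107) and with the replicate block (0.112). The same held without the filter on low counts (0.108), with limma-voom (0.0682), with length and GC trends removed (0.0595), and with those trends and the block (0.123).

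Of 27 pattern receptors and adaptors tested, 10 were higher in null and 9 lower, against 27% and 25.3% of all genes. The surface receptor Tlr2 ranged from 89.8 to 129 (median 102) CPM in WT and from 303 to 378 (median 346) in null (log2 fold change 1.70 ± 0.09, adjusted p = 1.73e-10). Clec4e, the receptor Mincle for mycobacterial glycolipid, rose from a median of 42.8 CPM in WT (34.9 to 47.2) to 252 in null (223 to 260.2) (log2 fold change 2.55 ± 0.08, adjusted p = 5.77e-13), and its neighbours in the gene cluster Clec4d and Clec4n rose by 1.03 and 1.74. Irak3, an inhibitor of Toll-like receptor signalling, rose from a median of 41.6 CPM in WT (35.1 to 46.7) to 248 in null (208 to 292) (log2 fold change 2.61 ± 0.10, adjusted p = 4.64e-12). In the other direction, the lipopolysaccharide receptor Tlr4 fell by 0.79 on the log2 scale, and the receptors for nucleic acid in endosomes Tlr7, Tlr8 and Tlr13 by 1.29, 0.63 and 0.83. Clec7a, the β-glucan receptor Dectin-1, fell from a median of 54.7 CPM in WT (48.8 to 64.2) to 15.5 in null (13.4 to 18.5) (log2 fold change -1.81 ± 0.09, adjusted p = 1.6e-10). Myd88, the adaptor of most of these receptors, was higher by 0.27, but on log2(TPM + 1) by 0.15 with an adjusted p of 0.151.

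Interferon-stimulated genes were lower in null. Of 30, all tested, 27 fell in null, 18 of them by at least 2-fold, and none rose; the median log2 fold change was -1.23. Irf7, the factor that amplifies type I interferon, ranged from 50.0 to 98.8 (median 62.3) CPM in WT and from 9.68 to 25 (median 13.8) in null (log2 fold change -2.18 ± 0.27, adjusted p = 1.53e-05). Ifi27l2a ranged from 91 to 142 (median 125) in WT and from 7.42 to 27.9 (median 14.8) in null (log2 fold change -2.90 ± 0.25, adjusted p = 4.66e-07). Rtp4 ranged from 84 to 135 (median 101) in WT and from 10.7 to 30.8 (median 13.8) in null (log2 fold change -2.62 ± 0.28, adjusted p = 4.29e-06). No null library of these 3 genes reached the lowest WT library. The mitochondrial nucleotide kinase Cmpk2 fell by 2.49, the DNA sensor Ifi204 by 2.27, Oas3, which makes the activator of RNase L, by 2.24, and the RNA-binding Ifit2 and Ifit3 by 2.20 and 2.16. The interferon signal transducer Stat2 fell by 0.37, and Irf9, its partner, by 0.87. Stat2 missed the threshold without WT library 2 or 6 or null library 2, 3 or 4 (adjusted p from 0.0594 to 0.0737), and with length and GC trends removed (0.13). It also missed in the fit of all 36 libraries (0.0515) and with length and GC trends removed and the replicate block (0.141). Bst2, Cxcl10 and Ifitm3 did not pass the test, at 0.08, 0.13 and 0.23, but Ifitm3 was higher without WT library 1 or null library 1 (adjusted p = 0.0329 and 0.0468). The WT libraries had medians between -0.34 and 0.36 for this list, and the null libraries lay between -1.25 and -0.76. Many Ifit, Oas and Ifi genes have close copies, so the split of counts between copies is uncertain.

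The letters GAAANNGAAA, the core of the interferon-stimulated response element, stood in the 250 bases before the start of 9 of the 20 list genes with a RefSeq promoter, against 3.46% of all 27025 genes, on either strand. The 9 were Ifit1, Ifit3, Isg15, Oas1a, Oas3, Rsad2, Stat2, Bst2 and Cxcl10, and the last 2 of these did not pass the test, as given above. Shown with the matches in capitals, from RefSeq on GRCm38.p6, are Isg15 (chr4:156200819-156201068, minus strand), Ifit1 (chr19:34640639-34640888, plus strand) and Rsad2 (chr12:26456453-26456702, minus strand), which code for antiviral proteins and fell together.
Isg15: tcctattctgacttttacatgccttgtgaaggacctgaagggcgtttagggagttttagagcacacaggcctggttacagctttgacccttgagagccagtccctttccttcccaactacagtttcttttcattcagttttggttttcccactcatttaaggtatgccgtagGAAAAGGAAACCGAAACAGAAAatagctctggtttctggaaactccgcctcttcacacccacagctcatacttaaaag
Ifit1: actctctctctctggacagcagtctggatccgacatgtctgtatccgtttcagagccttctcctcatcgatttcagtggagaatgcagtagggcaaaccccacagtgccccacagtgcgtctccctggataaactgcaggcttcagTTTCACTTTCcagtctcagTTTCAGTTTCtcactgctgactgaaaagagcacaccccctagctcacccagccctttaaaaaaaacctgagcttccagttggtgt
Rsad2: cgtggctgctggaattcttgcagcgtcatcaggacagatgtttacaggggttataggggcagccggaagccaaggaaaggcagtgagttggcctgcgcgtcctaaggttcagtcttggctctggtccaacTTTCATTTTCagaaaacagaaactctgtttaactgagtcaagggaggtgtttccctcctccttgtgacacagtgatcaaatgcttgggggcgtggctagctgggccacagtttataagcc
Isg15 has 3 overlapping matches, Ifit1 has 2 and Rsad2 has 1, and in Ifit1 and Rsad2 the letters lie on the opposite strand. In null, Isg15 fell by 0.71, Ifit1 by 1.26 and Rsad2 by 1.59 on the log2 scale (adjusted p = 0.00797, 0.000312 and 9.64e-05), and the groups overlapped for Isg15, whose adjusted p in the fit of all 36 libraries was 0.0887.

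**Figure D3:**
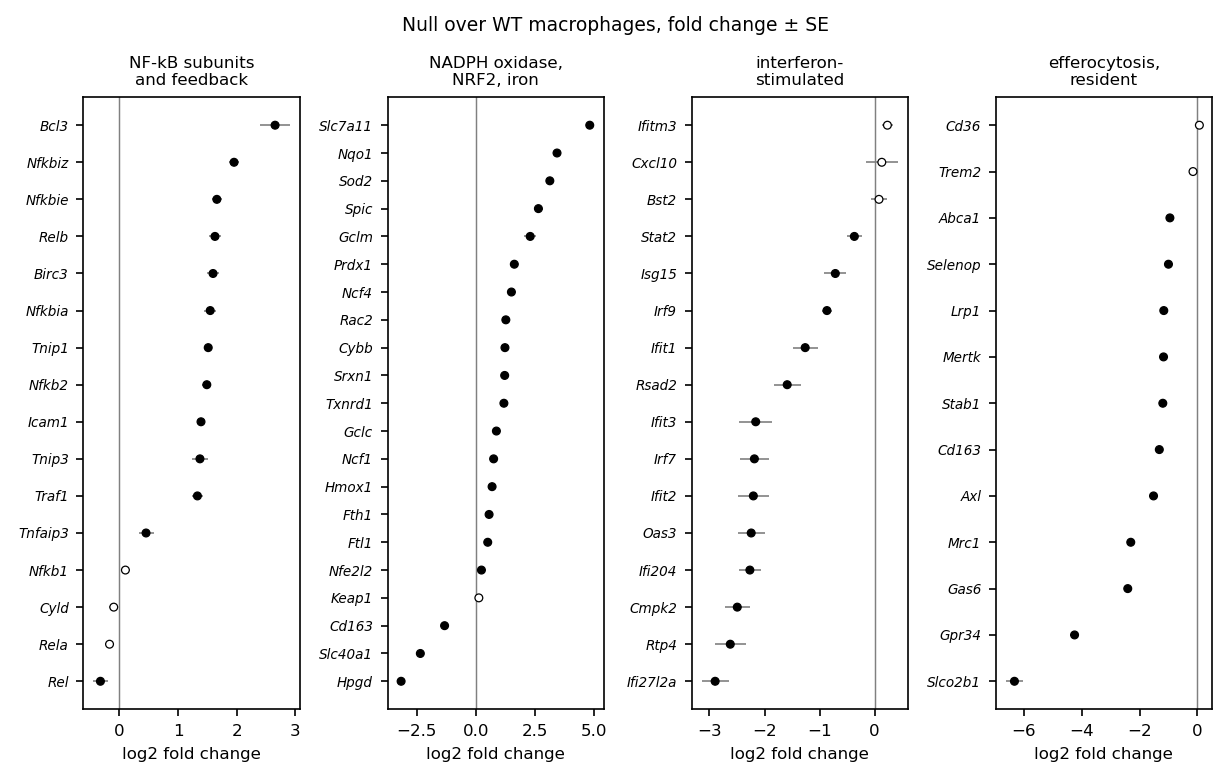
Log2 fold change of null over WT with its SE (bars) for the members of 4 lists that are named with a value; filled points passed an adjusted p of 0.05 and open points did not. In the interferon panel 13 of 16 points are filled and below 0, and in the NF-kB panel 12 of 16 are filled and above 0.

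Genes for the uptake of dying cells and of tissue-resident macrophages were mostly lower: of 21 tested, 16 fell and 1 rose, with a median log2 fold change of -0.95. Gas6, which bridges phosphatidylserine on dying cells to its receptors, ranged from 2385 to 2766 (median 2633) CPM in WT and from 434 to 548 (median 489.9) in null. Both of the receptors tested fell, Mertk from a median of 99 CPM in WT (86.7 to 114) to 43.8 in null (36 to 55.4) and Axl from a median of 35.8 CPM in WT (29.2 to 46.4) to 11.9 in null (8.79 to 18.9). Mrc1, the mannose receptor, ranged from 1065 to 1308 (median 1156) in WT and from 168 to 273 (median 249.9) in null (log2 fold change -2.30 ± 0.11, adjusted p = 7.45e-11). The groups did not overlap for any of the 4. Stab1 and Lrp1, large endocytic receptors, fell by 1.19 and 1.16, and Cd163, the hemoglobin-haptoglobin receptor, by 1.32. With an offset for average transcript length, Stab1 stood at -0.52 and missed the threshold (adjusted p = 0.0527). Selenop, a selenium carrier, fell by 1.00. Trem2, Cd36, Pros1 and Itgb5 did not pass the test, with Trem2 at -0.15 and Cd36 at 0.07. Trem2 was lower past the threshold on log2(TPM + 1) (adjusted p = 0.00306). The same held with length and GC trends removed (-0.30, adjusted p = 0.00238) and with those trends and the replicate block (-0.31, adjusted p = 0.0094). The 1 that rose was Vsig4, a complement receptor, at a mean of 1.09 CPM in null.

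Of 8 Fc receptor genes tested 6 were lower and none was higher. Fcgr3, an activating receptor for IgG, ranged from 1747 to 2599.9 (median 2274) CPM in WT and from 717 to 1068 (median 898) in null (log2 fold change -1.31 ± 0.11, adjusted p = 5.08e-08). Fcgr2b, the inhibitory one, fell by 2.77 on the log2 scale. Per length Fcgr2b went from 757 TPM in WT to 109 TPM in null, while Fcgr3 went from 3123 to 1130. Fcer1g, their shared signalling chain, fell by 0.36 with overlapping groups, and Fcgr4 did not pass the test (0.06).

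Of 14 complement genes tested, 5 were higher and 7 lower, against 27% and 25.3% of all genes. C1qa, C1qb and C1qc, the chains of the classical recognition molecule, fell by 0.92, 0.47 and 0.50 on the log2 scale. C3, the central component, rose from a median of 9.41 CPM in WT (6.21 to 10.5) to 296 in null (221 to 334) (log2 fold change 5.03 ± 0.16, adjusted p = 2.23e-12), Cfb, the alternative pathway protease, rose by 2.42, and Cfp, properdin, by 0.43. Of the subunits of complement receptors, Itgam fell by 0.50 and Itgax by 2.20.

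Among scavenger receptors and lectins 7 of 18 were higher and 8 lower. Marco, a receptor for bacteria and particles, rose from a median of 14.6 to 568 CPM. Clec4a1 ranged from 12 to 27.7 (median 24.1) CPM in WT and from 319 to 394 (median 345) in null (log2 fold change 3.98 ± 0.18, adjusted p = 1.44e-10), and Clec4a2 rose by 1.90. Msr1, scavenger receptor A, was higher by 0.55 with overlap, but on log2(TPM + 1) by 0.27 with an adjusted p of 0.116. Lgals3, galectin-3, fell by 0.43. Of 11 tested genes of alternative activation, 7 fell and 2 rose. Arg1, which splits arginine, ranged from 10.5 to 35.3 (median 29.2) CPM in WT and from 2.13 to 4.63 (median 3.63) in null (log2 fold change -2.81 ± 0.28, adjusted p = 1.45e-06), and Clec10a, a galactose lectin, fell by 1.47. Socs3, an inhibitor of cytokine receptor signalling that was put in this list, rose from a median of 5.22 CPM in WT (4.15 to 5.63) to 51.8 in null (43.5 to 66.3) (log2 fold change 3.38 ± 0.12, adjusted p = 2.69e-12). Retnla, a defining gene of the state, had 0 counts throughout.

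Of 25 genes for matrix metalloproteinases, cathepsins and their inhibitors, 13 rose and 8 fell. The secreted collagenase Mmp8 was higher by 3.30, Mmp2 by 1.91 and Mmp19 by 0.98, beside Mmp9 and Mmp14 above. The macrophage elastase Mmp12 fell by 0.69 with overlapping groups and Mmp27 by 1.08. Ctsb, a lysosomal cathepsin, ranged from 28244 to 34157 (median 30195) in WT and from 19856 to 22252 (median 20718) in null (log2 fold change -0.56 ± 0.06, adjusted p = 1.09e-06). Ctsc fell by 0.86, whereas Ctsl rose by 0.76. Of 19 integrin and adhesion genes, 8 rose and 8 fell, again beside 27% and 25.3% of all genes. Itgal, the α chain of LFA-1, rose from a median of 34.4 CPM in WT (29.8 to 52.3) to 129 in null (116 to 149.6), and its ligand Icam1 rose as given above. Itga6, a laminin receptor chain, fell from a median of 164 CPM in WT (157 to 177) to 57.7 in null (49.7 to 62.2). Both differences were far larger than the spread within groups (log2 fold change 1.79 ± 0.13, adjusted p = 2.22e-08 and log2 fold change -1.57 ± 0.07, adjusted p = 2.2e-11).

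Genes against oxidative stress and for the oxidative burst were mostly higher: of 31 tested, 21 rose and 4 fell, with a median log2 fold change of 0.65. The NADPH oxidase makes superoxide in phagocytes. Its catalytic subunit Cybb ranged from 759 to 933 (median 874) CPM in WT and from 1864 to 2154 (median 2043) in null (log2 fold change 1.23 ± 0.06, adjusted p = 9.96e-11), and the cytosolic subunits Ncf4, Ncf1 and Rac2 rose by 1.5, 0.75 and 1.27. NRF2 is the factor that switches on antioxidant genes when its inhibitor KEAP1 is modified. Its gene Nfe2l2 was higher by 0.24, but on log2(TPM + 1) its value was 0.04 with an adjusted p of 0.643. Keap1 did not pass the test (0.13), but did with length and GC trends removed (adjusted p = 0.0499) and without null library 3 (0.0455).

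Of the list, 8 members code for known NRF2 target enzymes or a transporter; they were picked with their values known, and each was higher. Slc7a11, which imports cystine for glutathione, ranged from 4.15 to 8.61 (median 5.79) CPM in WT and from 143 to 236 (median 164) in null (log2 fold change 4.81 ± 0.17, adjusted p = 8.89e-12). Nqo1, a quinone reductase, ranged from 4.69 to 7.96 (median 5.96) in WT and from 58.3 to 74 (median 66) in null (log2 fold change 3.43 ± 0.11, adjusted p = 9.55e-13). Gclm, a subunit of the first enzyme of glutathione synthesis, ranged from 88.9 to 177 (median 125) in WT and from 369 to 908 (median 674) in null (log2 fold change 2.30 ± 0.24, adjusted p = 3.89e-06). The groups did not overlap for any of the 3. Prdx1, Srxn1, Txnrd1, Gclc and Hmox1 were higher by 1.63, 1.22, 1.19, 0.87 and 0.69. Sod2, mitochondrial superoxide dismutase, rose from a median of 91.4 CPM in WT (82.2 to 101) to 764 in null (714 to 960.2) (log2 fold change 3.12 ± 0.08, adjusted p = 8.91e-14). Of the iron genes, Slc40a1, the iron exporter ferroportin, ranged from 1074 to 1439 (median 1312) CPM in WT and from 210.1 to 298 (median 251) in null (log2 fold change -2.34 ± 0.09, adjusted p = 9.61e-12), while the storage chains Fth1 and Ftl1 were higher by 0.56 and 0.50. The letters TGACNNNGCA, the core of the antioxidant response element, stood on either strand of the 250-base promoter in 1 of 23 list genes with a RefSeq promoter, Txnrd1, against 2.8% of all 27025 genes. Spic, a factor of iron-recycling macrophages, rose from a median of 1.76 to 10.6 CPM.

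The counts for glycolysis and the TCA cycle stand beside 27% higher and 25.3% lower over all genes. Of 24 glycolysis genes 9 were higher and 8 lower, with a median of -0.02, and of 25 genes of the TCA cycle 9 were higher and 7 lower. Tested on log2(TPM + 1) these counts became 5 higher and 11 lower in each of both lists. The hexokinase Hk3 fell by 1.34 on the log2 scale. The hexose carriers Slc2a6 and Slc2a1 rose by 1.12 and 0.68, and Hif1a, which drives glycolytic genes, by 0.67. Pcx and Me1, which feed and drain the cycle, rose by 1.26 and 1.13, and Mdh2 by 0.60.

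Of 77 tested genes of oxidative phosphorylation, 59 were higher in null and 2 lower, with a median of 0.44 and no change of 2-fold. The library medians in null were 0.17, 0.65, 0.63, 0.53, 0.30 and 0.18 for libraries 1 to 6, against -0.08 to 0.09 in WT, so libraries 2, 3 and 4 were the highest. The 80 genes for cytosolic ribosomal proteins had medians of -0.40, 0.66, 0.47, 0.39, -0.30 and -0.22 in the same order, with 6 genes higher and 6 lower and a median log2 fold change of 0.16. Over all genes tested the log2 fold change fell with transcript length (Spearman correlation -0.20). The correlation of library values with length was -0.28, -0.29 and -0.24 in null libraries 2, 3 and 4. In null libraries 1, 5 and 6 it was -0.06, -0.14 and -0.05, and in WT libraries it ran from -0.26 to 0.12. With length and GC trends removed the median of the ribosomal genes turned to -0.11, with 2 higher and 23 lower. Library medians across null thus fell on both sides of WT for the ribosomal genes and on 1 side for oxidative phosphorylation. With each library's trend with gene length and GC content removed, and the replicate block, 39 genes of oxidative phosphorylation were higher and 4 lower, with a median of 0.17. Ribosomal protein counts without null library 1, 5 or 6 were 16, 14 and 12 higher, and without library 2, 3 or 4 they were 2 higher each.

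Genes for the efflux and handling of cholesterol were mostly lower: of 21 tested, 12 fell and 4 rose, with a median of -0.42. Apoe, which carries cholesterol out of macrophages, ranged from 4503 to 7695 (median 6417) CPM in WT and from 1682 to 2899.8 (median 2402) in null (log2 fold change -1.38 ± 0.15, adjusted p = 2.09e-06). The transporter Abcg1 ranged from 196 to 354 (median 321) in WT and from 47.4 to 89 (median 65.1) in null (log2 fold change -2.11 ± 0.17, adjusted p = 1.08e-07). Pparg, the nuclear receptor for fatty acids, ranged from 8.87 to 11.2 (median 9.96) in WT and from 1.16 to 2.28 (median 2.07) in null (log2 fold change -2.38 ± 0.15, adjusted p = 2.27e-09). Nr1h3, which codes for the sterol receptor LXRα that activates Abcg1 and Apoe, moved the other way, from a median of 7.2 CPM in WT (6.28 to 7.78) to 45.6 in null (41.7 to 51.2) (log2 fold change 2.68 ± 0.09, adjusted p = 8.36e-13). The groups did not overlap for these 4 genes. Lpl, lipoprotein lipase, fell by 1.44, Cyp27a1, which makes an oxysterol, by 1.68, and Abca1 by 0.95, while the lipid droplet protein Plin2 was higher by 0.61. Cholesterol and fatty acid synthesis had 9 genes higher and 10 lower of 27 tested, with Sqle, squalene epoxidase, higher by 0.89 and the fatty acid desaturase Scd2 lower by 0.95.

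Among 30 lysosome genes 13 fell and 3 rose. On log2(TPM + 1), 20 fell and 3 rose. The proton pump subunit Atp6v0a1 fell by 1.09 on the log2 scale. Of 37 cell cycle genes 14 were higher and 2 lower, with a median of 0.18; on log2(TPM + 1), 9 were higher and 5 lower. Rrm2, for the synthesis of deoxynucleotides, and Ccne1, cyclin E1, rose by 1.05 and 1.04. Cdkn1a, the cell cycle inhibitor p21, also rose, from a median of 299 CPM in WT (265 to 318) to 526 in null (448 to 614) (log2 fold change 0.84 ± 0.08, adjusted p = 3.21e-07). Myc fell from a median of 82.6 CPM in WT (68.6 to 91.5) to 24.3 in null (22.8 to 38.5) (log2 fold change -1.59 ± 0.12, adjusted p = 3.11e-08). The proliferation marker Mki67 was higher by 0.61 without overlap.

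Of 32 transcription factors of macrophages tested, 15 fell and 7 rose. Cebpb, a factor of inflammatory genes, ranged from 1.04 to 3.22 (median 2.7) CPM in WT and from 11.8 to 22.7 (median 15.1) in null (log2 fold change 2.72 ± 0.24, adjusted p = 1.75e-07). Cebpd ranged from 11.6 to 27.2 (median 19.1) in WT and from 21.8 to 120.3 (median 85.4) in null, with overlapping groups (log2 fold change 2.00 ± 0.42, adjusted p = 0.00138). Spi1, which codes for the lineage factor PU.1, did not pass the test (log2 fold change 0.27 ± 0.15, adjusted p = 0.133) except without null library 2 (0.38, adjusted p = 0.00563). Nupr1 and Batf rose by 2.11 and 1.16, and Egr2 and Bhlhe40 fell by 1.10 and 1.03.

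These macrophages are the precursors of osteoclasts, so the genes of that path were read in the cultures without RANK-L. Of 25 tested, 9 were higher in null and 10 lower, against 27% and 25.3% of all genes, with a median log2 fold change of -0.05. Tnfrsf11a, which codes for RANK, the receptor for RANK-L, ranged from 36 to 57.5 (median 50.3) CPM in WT and from 26.4 to 34 (median 30.1) in null (log2 fold change -0.68 ± 0.10, adjusted p = 4.69e-05). Traf6, the adaptor that RANK needs, ranged from 45.6 to 51.1 (median 47.5) in WT and from 12.8 to 22.6 (median 16.3) in null (log2 fold change -1.52 ± 0.12, adjusted p = 2.21e-08). Nfatc1, the master factor of osteoclasts, ranged from 88.7 to 116 (median 98) in WT and from 44.8 to 73.8 (median 55.7) in null (log2 fold change -0.79 ± 0.12, adjusted p = 4.97e-05). Each was lower in all null libraries than in any WT library. Itgb3, the β3 integrin of osteoclasts, and Atp6v0d2, a proton pump subunit needed for fusion, fell by 1.29 and 1.14 on the log2 scale. Acp5, the acid phosphatase TRAP, rose from a median of 8.07 CPM in WT (6.29 to 9.44) to 37.8 in null (34.2 to 42.3) (log2 fold change 2.23 ± 0.10, adjusted p = 4.74e-11), and the AP-1 members Fos and Fosl2 by 0.89 and 1.19. Of 12 tested repressors of osteoclast formation 6 fell and 3 rose, and Irf8, a factor of the monocyte lineage, was among those that fell (-0.50).

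Of 12 genes for antigen presentation on MHC class II tested 3 rose and 3 fell, and of 15 for class I 3 rose and 3 fell, against 27% and 25.3% of all genes. Cd74, the invariant chain, rose from a median of 22.1 CPM in WT (9.95 to 31.2) to 45.9 in null (37.1 to 47.2) and H2-Ab1 from a median of 5.1 CPM in WT (3.55 to 8.33) to 14.7 in null (11 to 18.4). H2-K1 was higher by 0.65 with overlapping groups.

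The genes beside Mir324 and those reported as its targets are a mixed list of 15, of which 11 were tested, 6 were higher and 1 lower. Eif5a, a translation factor, and Ctdnep1, a nuclear envelope phosphatase, which lie near Mir324 on chromosome 11, were higher by 0.46 and 0.83. Elp5, Gabarap, Gps2 and Phf23 did not pass the test. The labels do not say whether counting used strand, so reads of overlapping genes on opposite strands here cannot be told apart. Of all genes tested, 11575 had an annotated 3′ UTR, 27.2% of them higher and 25.6% lower, with a median of 0.02. A site for the seed of the 5p form, the letters GGGATGC on the UTR strand, was present in 1126, of which 26.5% were higher and 28.2% lower, with a median of -0.03. For the 3p form, GGCAGTG, 2114 genes had a site, 24.3% higher and 28.4% lower, with a median of -0.03. The genes with a site were thus not more often higher in null than all genes. Whether UTR length or other features go with the sites was not tested.

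**Figure D4:**
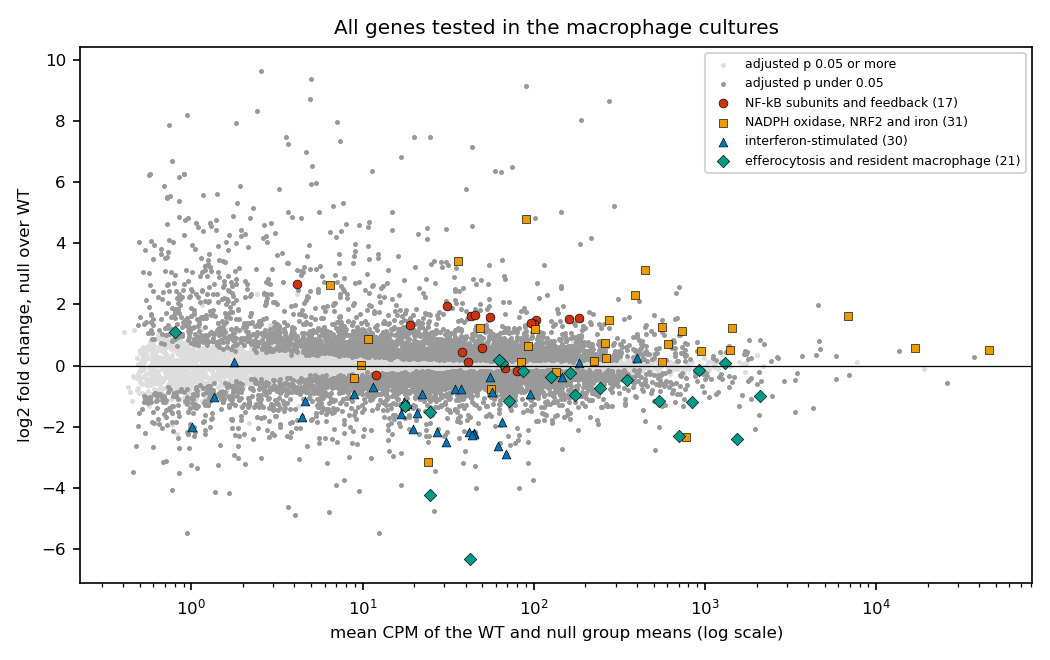
Log2 fold change of null over WT against the mean CPM (log axis) of all 11935 genes tested; dark grey points passed an adjusted p of 0.05 and coloured shapes are 4 of the lists. The median of all points is 0.02, with the NF-kB members mostly above and the interferon-stimulated members mostly below.

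The genotype difference was next compared with that in osteoclast and osteoblast cultures, in 1 fit of all 36 libraries. The difference in macrophages differed from that in OC for 6779 of 14278 genes (47.5%) and from that in OB for 6546 (45.8%), by edgeR's quasi-likelihood test of the interaction with Benjamini-Hochberg adjustment. Levels across the 3 cultures are given as means ± SD over 6 libraries, in CPM scaled over all 36. Mmp9 stood at 0.336 ± 0.201 in WT BMM and 186 ± 23.8 in null BMM, but at 6862 ± 593 in WT OC and 262 ± 43.6 in null OC. Mmp9 was thus higher in null without RANK-L and lower in null with it, and the log2 fold changes differed by 13.85 on the log2 scale (adjusted p = 5.97e-30). Acp5 showed the same pattern, at 8.37 ± 1.17 and 39 ± 3.38 in WT and null BMM and 7097 ± 157 and 96.1 ± 35.4 in WT and null OC (difference 8.43, adjusted p = 2.68e-26). For Mmp14 the differences between BMM and OC differed by 5.96 and for Nfkbia by 3.07, with Nfkbia at 613 ± 37.1 in WT OC and 212 ± 19.3 in null OC.

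Itgb3 was lower in null in both cultures, but by far more in OC, where it went from 488 ± 50.0 to 11.7 ± 1.74 CPM, than in BMM, from 14.6 ± 3.61 to 5.93 ± 0.934 (difference 4.08). Nfatc1 and the chemokine receptor Ccr1 had differences of 2.53 and 4.04, and Adcy3 of 1.20, each lower in null in both cultures. Fpr1 was high in null in both, at 561 ± 24.9 in BMM and 517 ± 39 in OC, with WT at 1.42 ± 0.686 and 0.391 ± 0.152. Adgre1 fell with RANK-L in WT, from 1888 ± 122 to 986 ± 28.8, and stood at 7458 ± 807 and 6667 ± 1094 in null (difference -0.77). Csf3r, the receptor for G-CSF, differed by -3.80, with 2.35 ± 0.27 in WT OC and 68.7 ± 19.3 in null OC. Fcgr2b was lower in null BMM and higher in null OC than in the WT of the same culture (difference -3.85). Sorbs3 differed by -3.25 and Cd74, which was higher in null BMM and lower in null OC, by 4.04. For Egr1, with 44.2 ± 3.8 in WT OC and 1.84 ± 0.755 in null OC, the difference of -0.23 did not pass the test (adjusted p = 0.736). The comparisons with OC and with OB both use the same 12 BMM libraries, so they are not independent of each other. Those libraries also chose the genes of largest change, such as Mmp9, Fpr1, Slc13a3, Slpi and Lox. A large difference from OC or OB was thus favoured for these genes, and its size is a description.

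The osteoblast cultures gave other values for the genes of largest change. Their libraries also held RNA of macrophage and osteoclast genes. Adgre1 stood at 607 ± 60.3 CPM in WT OB and 425 ± 59.4 in null OB, and Acp5 at 1451 ± 149 and 1561 ± 250. The part of other cell types in the OB values was not tested. Fpr1 stood at 15.1 ± 2.99 in WT OB and 12.2 ± 3.97 in null OB, and the difference of differences was 8.96 (adjusted p = 1.73e-24). Slc13a3 differed by 6.63, Mmp9 by 8.44, Slpi by 6.28 and Lox by 6.83. Lox and Slpi were far more abundant in OB, at 3792 ± 126 and 740.4 ± 82.5 in WT, than in any BMM library. Egr1 was 174 ± 63.9 in WT OB and 235 ± 66 in null OB, and its difference was -5.21. Nfkbia stood at 114 ± 10.6 and 109 ± 19.5 in WT and null OB (difference 1.61).

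**Figure D5:**
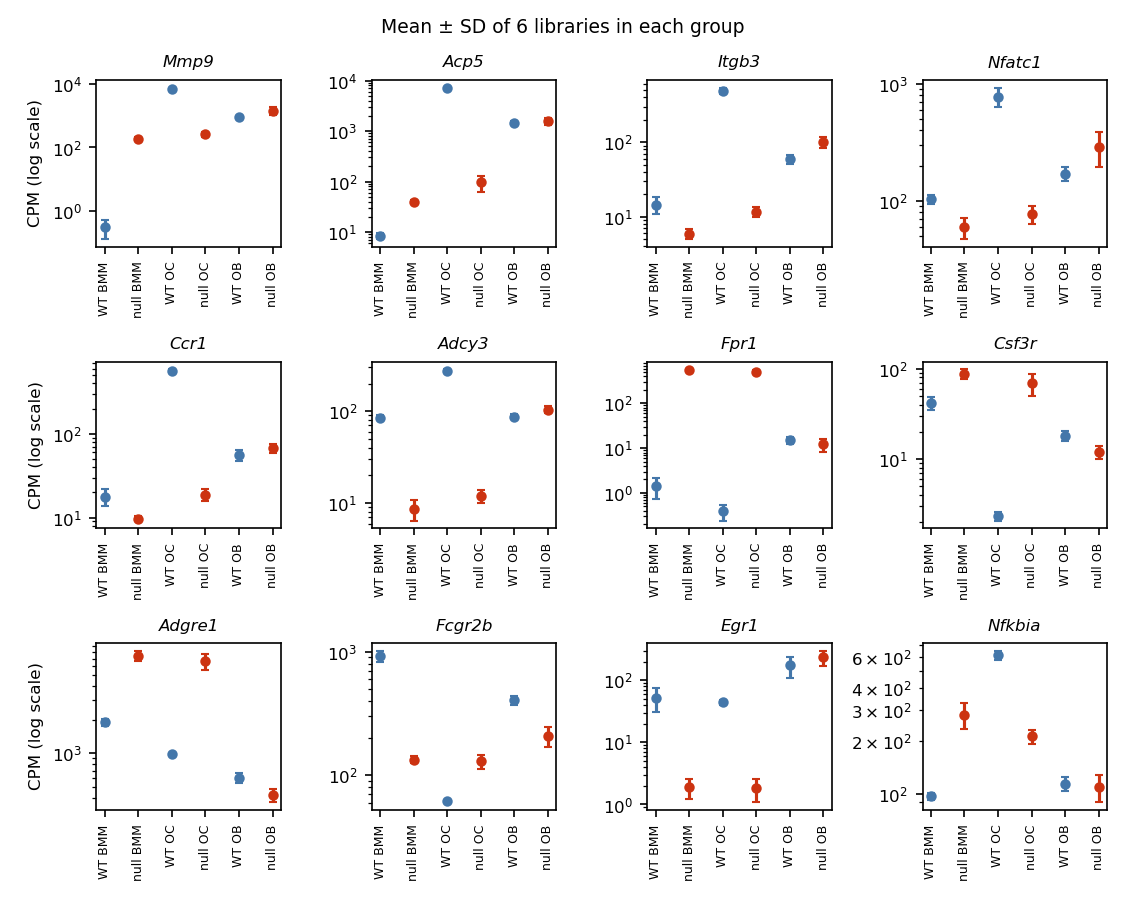
Mean and SD (bars) of 6 libraries in CPM on a log axis for 12 genes in WT (blue) and null (red) BMM, OC and OB. For Mmp9 and Acp5 the null mean lies above WT in BMM and below it in OC; for Fpr1 it lies above WT in both and near WT in OB.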

How the data were processed

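RNA-seq libraries of null and WT BMM (6 each), with OC and OB for the differences between cultures, were read from 1 table per library. Per the file headers and the values, each deposited table gives estimated counts and TPM per transcript, with the transcript length and effective length; per the submitters' processing notes kallisto and DESeq2 were used, without versions. The notes name GRCh38, a human build, whereas 97.6% of the 88198 transcript IDs matched mouse GENCODE M21, and strand was not given in the sources used here. Transcripts without a gene held 0.606% to 0.960% of counts.

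Estimated counts were summed per gene (30284 genes) and rounded, and tested with edgeR 4.0.16 (R 4.3.3; filterByExpr, TMM, robust quasi-likelihood test; p adjusted by Benjamini-Hochberg, threshold 0.05), with libraries of both genotypes and no covariate. Interactions used all 36 libraries. limma 3.58.1 and DESeq2 1.42.0 served as alternatives, the first on log2(TPM + 1) of the TPM deposited by the authors. The script was tested on simulated data. No library pair agreed within sampling noise. Libraries with the same number did not deviate together, with correlations from -0.2 to 0.005. The labels do not say whether equal numbers pair libraries, and these correlations cannot decide it, so the main fit used no pairing. Genes were named as the 12 of largest change in each direction and, in each of 35 lists, up to 6 members of largest change with at least 5 CPM, with others whose role bears on the list. Members and lists were chosen with earlier results of these data known. Families with near-identical copies, such as Fcgr, Clec4a, Ifi, H2 and ferritin genes, can share counts, and overlapping genes on opposite strands too. No single gene's p takes account of this. Some genes of the lists are counted but not reported by name here.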

Additional observations from a re-analysis of the deposited data

Results flagged for a closer look

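In 16 of 430 gene and group pairs, 1 library stood apart from the other 5 by more than Dixon's 95% critical value of 0.625, and chance gives about 5% of such groups. In WT these were Acod1 in library 6 (2.02 CPM, the highest), Atp6v0d2 in library 4 (64.7, the lowest), Cd55 in library 2 (0.626, the highest), Cxcl1 in library 2 (0.209, the lowest), Marco in library 4 (20.7, the highest) and Slpi in library 4 (3.04, the highest). In null they were Cd3d in library 5 (1.64 CPM, the highest), Cd55 in library 4 (41.1, the lowest), Cd74 in library 1 (37.1, the lowest), Cfp in library 5 (1730, the highest), Fcgr4 in library 3 (17.9, the highest), Fosl2 in library 6 (52.4, the highest), Hif1a in library 6 (259, the highest), Icam1 in library 4 (126, the lowest), Nfkb2 in library 6 (179, the highest) and Slco2b1 in library 5 (2.6, the highest). No library held more than 3 of these values.

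The genotype difference in macrophages differed from that in osteoclasts, by a test of the interaction, for 6779 genes and from that in osteoblasts for 6546. On the log2 scale, macrophages minus osteoclasts, it was 13.85 for Mmp9, 8.43 for Acp5, 5.96 for Mmp14, 4.08 for Itgb3, 4.04 for Ccr1 and for Cd74, 3.07 for Nfkbia, 2.53 for Nfatc1, 1.20 for Adcy3, -0.77 for Adgre1, -1.72 for Fpr1, -3.25 for Sorbs3, -3.80 for Csf3r and -3.85 for Fcgr2b. Macrophages minus osteoblasts, it was 8.96 for Fpr1, 8.44 for Mmp9, 6.83 for Lox, 6.63 for Slc13a3, 6.28 for Slpi, 1.61 for Nfkbia and -5.21 for Egr1. The genes of largest change in macrophages were picked with the same macrophage libraries, so large differences were favoured for them.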

How the results depend on the processing

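No value of a named gene changed direction among those past the threshold, and 218 of 236 kept their side of it in all alternatives run. The 3223 higher and 3025 lower genes became 2021 and 4116 on log2(TPM + 1), and 1430 in all had a change of at least 2-fold. With the replicate block, which treats libraries of the same number as pairs though the labels do not say so, 5648 genes were called, 2845 higher and 2803 lower. Leaving out each library in turn gave 5798 to 6325 calls. On log2(TPM + 1), higher counts were 5 for glycolysis, 5 for the TCA cycle, 9 for the cell cycle and 2 for ribosomal proteins, and lower counts 11 for the TCA cycle, 20 for the lysosome and 14 for ribosomal proteins. Without the filter on low counts 10 stromal genes were higher. Ribosomal proteins had 2 genes higher with the replicate block, 2 higher and 23 lower with length and GC trends removed, 2 and 22 with both, 14 higher in the fit of all 36 libraries, and 2 to 16 higher when each library was left out. Oxidative phosphorylation had 39 higher with length and GC trends removed and the block. The cause of these shifts was not tested. The uncertainty of the estimated counts was not carried into the tests. Folds of genes with 3 counts or fewer in a WT or a null library are imprecise. Having 6 libraries per group with no named batch limits what the comparison can show.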
